A study of Homo sapiens with 23 samples.

Results

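Urokinase-type plasminogen activator (PLAU), tissue-type plasminogen activator (PLAT), the urokinase receptor (PLAUR) and the serpin inhibitors SERPINE2 and SERPINB2 were picked by name, and all 5 have a row among the 21463 gene rows of the authors' deposited table. They were measured in PC-3, an established human cell line from a bone metastasis of prostate cancer, by sequencing of poly(A)-selected RNA. All cells, untreated ones included, carried a lentiviral PARG cDNA with a cleavable mClover3 tag behind the TetOne doxycycline-inducible promoter; PARG is the enzyme that degrades poly(ADP-ribose) chains. I4 and H6 are 2 single clones of these cells, and each was kept for 72 h without doxycycline or with 500 ng/ml of it. Experiment N used passage 5 cells, and its kit kept reads of both strands together; experiment B used passage 7 cells, a kit that records the strand, and a different sequencing centre. This gave 8 groups of 3 libraries, 1 well each, except untreated H6 in experiment B with 2 libraries. Since a group holds wells of a single clone, the tests measure at most the spread between wells. Cells that lack the construct were not analysed here, so doxycycline and PARG induction cannot be told apart.

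The plasminogen activators are serine proteases that cut the zymogen plasminogen into plasmin, a broad protease that dissolves fibrin and degrades extracellular matrix. Urokinase acts mostly at the cell surface, where it binds its lipid-anchored receptor, whereas the tissue activator acts mostly on fibrin. Serpins stop these proteases as suicide substrates that stay bound to the enzyme. High urokinase activity is a known trait of PC-3 cells and of invasive carcinoma cells in general.

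The authors' deposited table gives, for doxycycline against none in each clone and experiment, whichever group mean was higher, a signed fold and an adjusted p (q). Levels are taken to be RPKM, reads per kilobase of exon scaled to library size, a unit read from the values. It holds no value per library, so no SD is given, and the level of the other group was derived here as the listed level divided by the fold. The folds are not plain ratios of the listed means: between 324 and 439 genes of very low level share 1 fold value in each comparison. A derived level is therefore approximate. A gene is called when q is under 0.05, and directions rest on PARG being higher with doxycycline, with folds of 1.35 and 1.40 in I4 and 2.15 and 1.99 in H6 (experiments N and B) in the authors' deposited table. What a single read is worth in rare transcripts put libraries at about 33.6 to 43.2 M (mega) reads in experiment N (11 values for 12 libraries) and 19.8 to 26.5 M in experiment B (9 values for 11 libraries). This reading assumes groups of 3 libraries, so it does not cover untreated H6 in experiment B. The PC-3 labels fit the markers: KRT18 ranged from 84.5 to 127 RPKM over the groups and VIM from 256 to 416 RPKM, while KLK3, which PC-3 cells largely lack, stayed at or below 0.00695 RPKM, and the leukocyte marker PTPRC at or below 0.0515 RPKM.

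With doxycycline the urokinase gene fell to about the same extent as SERPINB2 in both clones and both experiments. The receptor gene fell in experiment B, SERPINE2 rose in 3 comparisons, and PLAT stayed within 1.15-fold of its untreated level. In bulk RNA, fewer cells that express a gene and less RNA per cell cannot be told apart. Of the 5 genes, 2 were called lower in all 4 comparisons (PLAU and SERPINB2), against 2.65% of the 10752 genes that were tested in all 4 and had a mean listed level of at least 1 RPKM, and 0 were called higher in all 4, against 2.27%. In I4 in experiment N, 2 of the 5 were called lower (12.6% of those genes) and 1 higher (10.4%). In H6 in experiment N, 2 were called lower (10.5%) and 2 higher (9.77%). In experiment B, 3 were called lower in I4 (9.02%) and 3 in H6 (5.35%), and 0 were called higher in I4 (10.1%) and 1 in H6 (4.93%).

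**Figure D1:**
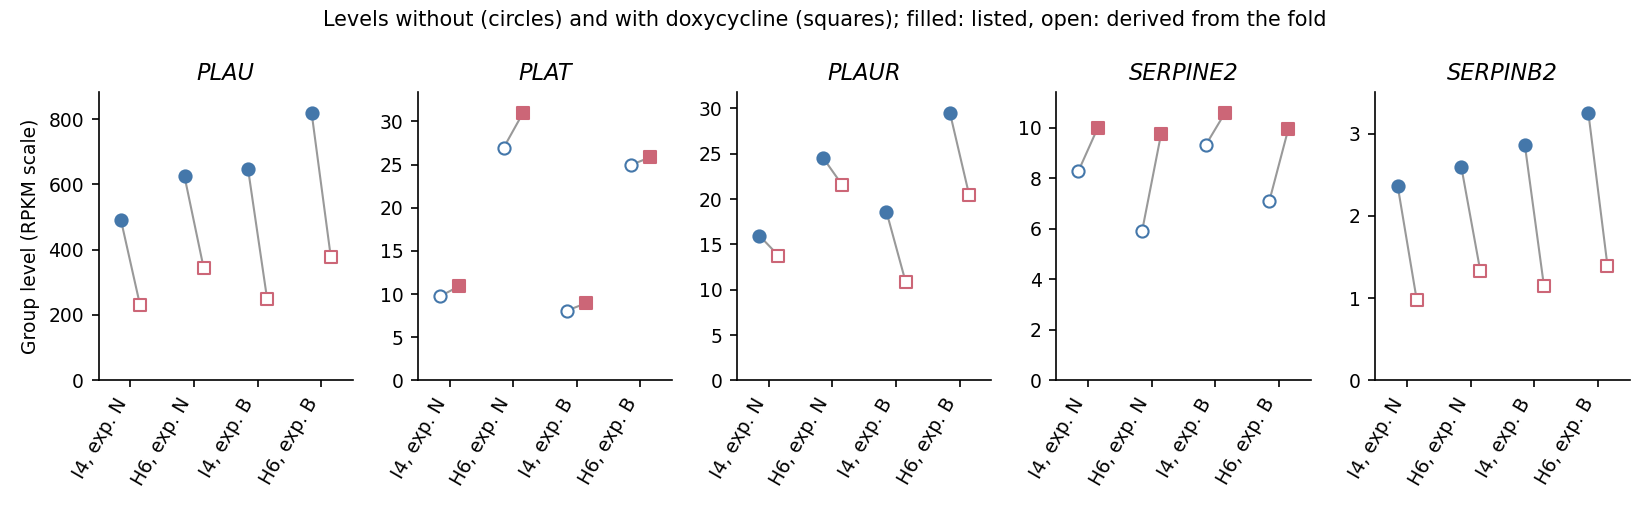
Level of each gene on the RPKM scale (y axis, linear, from 0) in the 8 groups, with circles for no doxycycline and squares for doxycycline, joined within each clone and experiment; filled symbols are group means listed by the authors and open symbols were derived from the fold. PLAU drops from between 491 and 817 RPKM to between 231 and 379 RPKM, and PLAT is higher in H6 than in I4 whether or not doxycycline was given.

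Among the activators, PLAU was one of the most abundant messages of these cells. The gene (ENSG00000122861) spans chr10:73909177-73917497 on the plus strand of GRCh38. Without doxycycline its level was 491 RPKM in I4 and 624 RPKM in H6 in experiment N, and 646 and 817 RPKM in experiment B. These levels ranked between 36 and 70 among all rows of the table. With doxycycline the derived levels were 231 RPKM in I4 and 345 RPKM in H6 in experiment N, and 248 and 379 RPKM in experiment B. The highest level with doxycycline lay below the lowest level without it, so the 4 treated and 4 untreated group means did not overlap. The share of all genes whose groups separate fully was not computed, here or for the genes below. The falls in experiment N were 2.13-fold (I4) and 1.81-fold (H6), and those in experiment B 2.60-fold and 2.16-fold, each with a q listed as 0 in the authors' deposited table. In each experiment the fall was larger in I4 than in H6, by 1.18-fold in N and 1.21-fold in B, and in each clone it was larger in experiment B; neither difference was tested. The fewest reads behind any of these levels, about 14487 per library at the lowest depth read, belong to treated I4 in experiment B, so counting error is small beside the folds.

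PLAT, the other activator gene (ENSG00000104368, chr8:42175233-42207724, minus strand), was far less abundant. Its level with doxycycline was 10.9 RPKM in I4 and 30.9 RPKM in H6 in experiment N, and 8.96 and 25.8 RPKM in experiment B. Without doxycycline the derived levels were 9.74, 27.0, 8.09 and 25.0 RPKM in the same order. Every H6 group stood above every I4 group, and the treatment moved no group past a group of the other clone. In the authors' deposited table PLAT was 1.15-fold higher in H6 in experiment N (q = 0.0398), its single call. In the other comparisons of the authors' deposited table the folds were 1.12 (I4, N; q = 0.158), 1.11 (I4, B; q = 0.356) and 1.04 (H6, B; q = 1.00), all toward doxycycline. Without doxycycline PLAU exceeded PLAT on the RPKM scale 50.4-fold (N) and 79.8-fold (B) in I4, and 23.1-fold and 32.8-fold in H6. With doxycycline these ratios of levels were 21.2 and 27.7 in I4 and 11.2 and 14.7 in H6.

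PLAUR encodes the receptor that holds urokinase at the cell surface (ENSG00000011422, chr19:43646095-43670547, minus strand). Its level without doxycycline was 16.0 RPKM in I4 and 24.6 RPKM in H6 in experiment N, and 18.6 and 29.4 RPKM in experiment B. With doxycycline the derived levels were 13.8, 21.6, 10.9 and 20.5 RPKM in the same order. All H6 groups again lay above all I4 groups. In experiment B the authors' deposited table gives a fall of 1.71-fold in I4 (q listed as 0) and of 1.44-fold in H6 (q = 5.53e-09). In experiment N the folds in the authors' deposited table were 1.16 toward lower in I4 (q = 0.197) and 1.14 toward lower in H6 (q = 0.0588), neither called. The log2 fold of B minus that of N was -0.56 in I4, a gap that 1.11% of the 10752 genes match or exceed, and -0.34 in H6, matched or exceeded by 3.66% of genes. This difference between experiments was not tested, and passage, sequencing centre and library kit changed together between N and B, so they cannot be told apart. No other gene with a row in the table overlaps PLAUR in GENCODE v29.

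SERPINE2, or protease nexin 1, inhibits urokinase, tissue activator, plasmin and thrombin (ENSG00000135919, chr2:223975112-224039319, minus strand). Its level with doxycycline was 9.98 RPKM in I4 and 9.77 RPKM in H6 in experiment N, and 10.6 and 9.96 RPKM in experiment B. Without doxycycline the derived levels were 8.29 RPKM in I4 and 5.91 RPKM in H6 in experiment N, and 9.31 and 7.09 RPKM in experiment B. The 4 groups with doxycycline thus lay within 1 RPKM of each other, whereas the untreated H6 groups were the lowest of all 8. In the authors' deposited table SERPINE2 rose in H6, 1.65-fold in experiment N (q listed as 0) and 1.40-fold in experiment B (q = 4.07e-06). In I4 the authors' deposited table gives a rise of 1.20-fold in experiment N (q = 0.00406) and a fold of 1.14 in experiment B that was not called (q = 0.131). The log2 fold of I4 minus that of H6 was -0.46 in experiment N and -0.31 in experiment B, gaps that 2.78% and 9.70% of the 10752 genes match or exceed; the difference itself was not tested. PARG also rose more in H6 than in I4, as given above, whereas PLAU fell more in I4 in both experiments. The PLAU gaps between clones were matched or exceeded by 13.1% (N) and 12.5% (B) of genes. SERPINB2 also fell more in I4, with gaps that 7.51% (N) and 52.0% (B) of genes match or exceed. For PLAUR in experiment N neither fall was called, and 83.6% of genes match or exceed the gap. In experiment B PLAUR fell more in I4, a gap that 15.04% of genes match or exceed. None of these gaps was tested. The part of PARG in these patterns was not tested.

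SERPINB2, plasminogen activator inhibitor type 2, inhibits urokinase and tissue activator and stays largely inside cells (ENSG00000197632, chr18:63871692-63903890, plus strand). It was the rarest of the 5 messages. Without doxycycline its level was 2.37 RPKM in I4 and 2.60 RPKM in H6 in experiment N, and 2.86 and 3.25 RPKM in experiment B. With doxycycline the derived levels were 0.979, 1.33, 1.15 and 1.39 RPKM in the same order. The 4 untreated groups all lay above the 4 treated ones. The falls in the authors' deposited table were 2.42-fold in I4 (q = 4.70e-08) and 1.96-fold in H6 (q = 6.99e-06) in experiment N, and 2.49-fold (q listed as 0) and 2.33-fold (q = 6.03e-12) in experiment B. The fewest reads behind a level, about 62.7 per library at the lowest depth read, belong to treated I4 in experiment B, so counting error weighs more here than in the other 4 genes. SERPINB10 shares 547 exonic bases with SERPINB2 on the same strand, and its listed level was at most 0.0386 RPKM in the authors' deposited table.

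**Figure D2:**
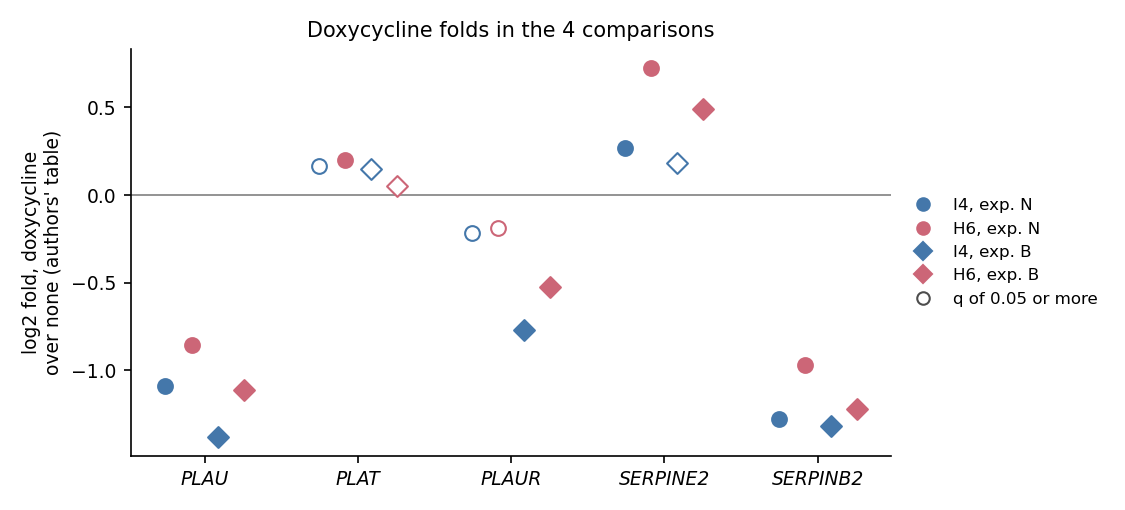
The log2 fold of each gene, doxycycline over none (y axis), in the authors' deposited table; circles mark experiment N, diamonds experiment B, blue clone I4 and red clone H6, and open symbols a q of 0.05 or more. All 8 points of PLAU and SERPINB2 lie between -1.38 and -0.85, the PLAUR points split by experiment, and the SERPINE2 points are higher in H6.

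Set against each other on the RPKM scale, the ratio of PLAU to its receptor went from 30.7 to 16.8 in I4 and from 25.4 to 16.0 in H6 with doxycycline in experiment N, and from 34.7 to 22.8 and from 27.8 to 18.5 in experiment B. The ratio of PLAU to SERPINE2 went from 59.2 to 23.1 in I4 and from 106 to 35.3 in H6 in experiment N, and from 69.3 to 23.5 and from 115 to 38.0 in experiment B. The activator level thus dropped relative to both genes in each comparison. The ratio of PLAU to SERPINB2 kept a narrow range, from 207 to 252 in the untreated and from 215 to 272 in the treated groups. These are ratios of transcript levels; protein amounts and enzyme activity were not analysed here.

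The clones differed in this gene set before any doxycycline was given. The H6 level of PLAT was 2.77 times that of I4 in experiment N and 3.08 times in experiment B. Differences of that size were rare, since 0.577% of the 10752 genes in experiment N and 0.549% in experiment B lay at least as far apart between the untreated clones. PLAUR was 1.54-fold and 1.58-fold higher in untreated H6 (5.68% and 5.56% of genes at least as far apart), and PLAU was 1.27-fold higher in both experiments (18.1% and 23.9%). SERPINB2 was 1.10-fold and 1.13-fold higher in untreated H6 (55.2% and 51.2% of genes at least as far apart). SERPINE2 went the other way, at 1.40-fold and 1.31-fold lower in untreated H6 than in I4 (9.28% and 18.6% of genes at least as far apart). The median log2 ratio of H6 to I4 over all 10752 genes was 0.03 in experiment N and 0.04 in experiment B. None of these ratios comes with a test, because the table compares treatments and not clones; the order of the clones was the same in both experiments for each of the 5 genes.

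With doxycycline the clones' order persisted for 4 of the genes, while SERPINE2 came level. PLAT was 2.84-fold and 2.88-fold higher in treated H6 than in treated I4 (N and B), PLAUR 1.57-fold and 1.88-fold, PLAU 1.49-fold and 1.53-fold, and SERPINB2 1.36-fold and 1.21-fold. SERPINE2 was 1.02-fold and 1.06-fold lower in treated H6, and 90.4% and 78.4% of genes lay at least as far apart.

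**Figure D3:**
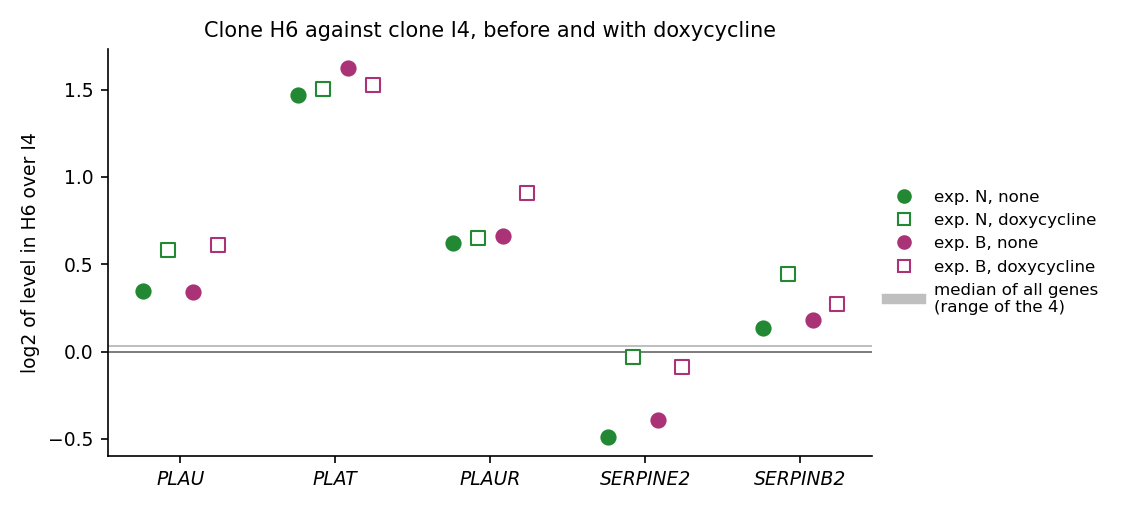
The log2 ratio of the level in clone H6 to that in clone I4 (y axis) for each gene, with filled circles for the untreated groups, open squares for the groups with doxycycline, green for experiment N and purple for experiment B; the thin grey band is the range of the medians over all 10752 genes. PLAT stands at 1.47 to 1.62 in all 4 pairs of groups, and SERPINE2 moves from -0.49 and -0.39 without doxycycline to -0.03 and -0.09 with it.

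C10orf55 is annotated on the strand opposite to PLAU (chr10:73909969-73922777, minus strand), and 916 of its 2514 exonic bases lie in exons of PLAU. In experiment N, whose libraries do not record the strand, its level without doxycycline was 8.29 RPKM in I4 and 6.61 RPKM in H6, and it fell 2.07-fold (q listed as 0) and 1.77-fold (q = 1.08e-10) in the authors' deposited table. Those log2 folds lay within 0.04 of the folds of PLAU. In the strand-specific experiment B the level was 2.93 RPKM in I4 and 2.72 RPKM in H6, and the falls in the authors' deposited table were 1.57-fold (q = 0.000213) and 1.61-fold (q = 0.00117), smaller than those of PLAU by 0.73 and 0.42 on the log2 scale. Without strand, reads of the 2 genes cannot be told apart where their exons overlap. C10orf55 reached 1.06 to 1.73% of the PLAU level in experiment N and 0.333 to 0.752% in experiment B, so its reads can add little to PLAU.

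Most other genes around the 5 loci were not called in all 4 comparisons. PLAT, PLAUR and SERPINE2 were not called in all 4 either, so this criterion cannot show whether their neighbours followed them. Within 200 kb of PLAU, 9 genes of at least 1 RPKM have a row, and C10orf55 was the only one called lower in all 4 comparisons. None of the 5 such genes around PLAT, the 3 around SERPINE2 or the 2 around SERPINB2 was called in all 4. Of those around SERPINB2, SERPINB8 was called lower in I4 in both experiments (1.43-fold in N, 1.47-fold in B). SERPINB7 was called lower in I4 in experiment B alone (1.32-fold). Among the 9 around PLAUR, LYPD3, a member of the same three-finger protein family, was called lower in all 4 (in 3 at a q under 0.01), and KCNN4, a calcium-activated potassium channel gene named here after its values were seen, was called higher in all 4 between 1.46-fold and 1.87-fold, as listed in the authors' deposited table.

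RefSeq promoter windows on GRCh38.p14, from 250 bases before to 50 after a gene's start, were at hand for 4 of the 5 genes, PLAT having no entry. The windows of the 3 genes that fell in 2 or more comparisons are shown to compare their layout. Capitals mark matches, on either strand, to the AP-1 motif TGANTCA, the TATA motif TATAAA, the GC box GGGCGG or the NF-kB consensus. Of the 2 PLAU windows the downstream one is given (chr10:73910882-73911181, plus strand); PLAUR is chr19:43670120-43670419 on the minus strand and SERPINB2 chr18:63887455-63887754 on the plus strand.
PLAU: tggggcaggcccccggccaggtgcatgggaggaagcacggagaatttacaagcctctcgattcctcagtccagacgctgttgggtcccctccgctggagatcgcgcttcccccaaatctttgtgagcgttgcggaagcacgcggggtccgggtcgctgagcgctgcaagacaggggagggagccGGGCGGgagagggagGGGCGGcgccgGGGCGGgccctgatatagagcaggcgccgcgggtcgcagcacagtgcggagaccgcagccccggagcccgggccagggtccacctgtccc
PLAUR: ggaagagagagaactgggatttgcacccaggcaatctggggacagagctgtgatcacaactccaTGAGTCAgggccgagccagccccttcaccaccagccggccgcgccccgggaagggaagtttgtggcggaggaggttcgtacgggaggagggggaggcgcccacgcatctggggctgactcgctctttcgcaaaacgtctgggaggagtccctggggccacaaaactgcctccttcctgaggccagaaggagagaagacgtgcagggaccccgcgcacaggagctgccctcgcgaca
SERPINB2: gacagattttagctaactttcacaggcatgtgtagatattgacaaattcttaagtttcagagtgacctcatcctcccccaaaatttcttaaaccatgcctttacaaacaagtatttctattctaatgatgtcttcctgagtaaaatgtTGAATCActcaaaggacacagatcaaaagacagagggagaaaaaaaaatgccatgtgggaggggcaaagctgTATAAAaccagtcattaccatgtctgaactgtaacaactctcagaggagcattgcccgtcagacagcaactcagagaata

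The PLAU window shown holds 3 GC boxes, beginning 66, 51 and 40 bases before the start, in a sequence with 70.0% G and C. The other PLAU window has no match to any of the motifs and 48.7% G and C. GC boxes were not particular to PLAU, since the windows of SERPINE2, not shown, hold 1 and 2. The AP-1 motif begins 186 bases before the start of PLAUR and 102 bases before that of SERPINB2, and neither PLAU window nor either SERPINE2 window has a match. SERPINB2 has the only TATA match of the set, 30 bases before its start, and 39.0% G and C. The NF-kB consensus matched none of the 6 windows of these genes. Of all 35116 RefSeq windows of this length 7.71% hold the AP-1 motif, 11.5% the TATA motif, 45.0% the GC box and 5.91% the NF-kB consensus. Among the 12623 windows of genes of at least 1 RPKM the shares are 4.98%, 5.67%, 68.0% and 6.83% in the same order. These matches describe letters in a short window and say nothing of which factors were bound.

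Of the genes of at least 1 RPKM in each comparison, 10323 other genes could be set against each member by the root-mean-square distance of the 4 log2 folds. The nearest to PLAU were LRRC38 (distance 0.10), SERPINB2 (0.13) and IL23A (0.13), which encodes a subunit of interleukin-23. The nearest to SERPINB2 were IL23A (0.12), PLAU (0.13) and TGM2 (0.14), the gene of transglutaminase 2. In the authors' deposited table IL23A fell 2.43-fold (I4) and 1.69-fold (H6) in experiment N, and 2.65-fold and 2.37-fold in experiment B. PLAUR lay nearest to RNF207, LIMD2 and NPIPB4 (0.11 to 0.13), SERPINE2 to IFITM1, CRELD1 and PLK2 (0.08 to 0.11), and PLAT to MTFR1L, GSR and CHURC1 (0.02 to 0.03). IFITM1, listed at 1.15 to 2.62 RPKM, was called in no comparison. Many genes with small folds lie close to PLAT, so its neighbours are little distinguished.

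For the rest of the plasminogen system, 94 genes were listed in 7 groups by role, and 50 of them had at least 1 RPKM. Of these 50, 4 were called lower in all 4 comparisons (8%, against 2.65% of the 10752 genes) and 3 higher (6%, against 2.27%), and the median of their mean log2 folds was -0.03. Over all 10752 genes the median was 0.00 (-0.00046 before rounding).

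Plasminogen itself (PLG), which circulates from the liver, had listed levels from 0 to 0.0110 RPKM in the authors' deposited table. Of 7 docking proteins and related genes measured, KRT8, a keratin that binds plasminogen at the surface of epithelial tumour cells, was called higher in all 4 between 1.28-fold and 1.33-fold, as listed in the authors' deposited table, and none lower. ANXA2, which docks tissue activator and plasminogen together with S100A10, was listed at 379 to 506 RPKM and was called in no comparison. S100A10 was 1.49-fold higher in I4 (q = 0.000276) and 1.36-fold higher in H6 (q = 0.000311) in experiment N in the authors' deposited table, and was not called in experiment B. Of 10 clearance receptors and surface proteoglycans, GPC1, the heparan sulfate proteoglycan glypican 1, was called higher in all 4 between 1.21-fold and 1.38-fold, as listed in the authors' deposited table. LRP1, the receptor that takes up complexes of activators with their inhibitors, was 1.16-fold lower in H6 in experiment N in the authors' deposited table and was not called elsewhere.

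Of 3 other inhibitors measured, TFPI2, a Kunitz-type inhibitor of plasmin that is deposited in the matrix, fell in all 4 between 1.58-fold and 1.83-fold from 76.4 to 111 RPKM, as listed in the authors' deposited table. SERPINB8, a serpin known to inhibit furin, was called lower in both I4 comparisons alone (1.43-fold in N, 1.47-fold in B in the authors' deposited table). Of 6 measured proteases that activate pro-urokinase or their inhibitors none was called in all 4. In experiment N, 3 were called higher in I4 (10.4% of the 10752 genes) and 4 in H6 (9.77%). In experiment B, 0 were called higher in I4 (10.1%) and 2 in H6 (4.93%). The 4 in H6 in experiment N were the protease gene CTSB and the inhibitor genes CST3, SPINT1 and SPINT2. Among those, the lysosomal protease gene CTSB was 1.29-fold and SPINT2, an inhibitor of hepsin and matriptase, 1.30-fold higher there in the authors' deposited table. Of 7 receptor partners such as integrins none was called in all 4; ITGB1, the integrin beta-1 chain, was listed at 422 to 639 RPKM and called in no comparison. Of 5 three-finger family genes, which share the fold of the urokinase receptor, LYPD3 fell in all 4 between 1.64-fold and 1.95-fold, as listed in the authors' deposited table. Its call in H6 in experiment B rests on q = 0.0427 at a listed level of 1.28 RPKM in the authors' deposited table, and is lost at a q under 0.01.

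Of 12 substrates measured, 2 were called lower in all 4. LAMB3, a chain of the basement membrane protein laminin-332, fell between 1.58-fold and 1.80-fold, as listed in the authors' deposited table. MMP13, whose collagenase zymogen plasmin can activate, was the single substrate called higher in all 4, between 2.51-fold and 4.09-fold, as listed in the authors' deposited table. Its level was low, listed at 1.17 to 1.55 RPKM with doxycycline and lower still without it, so these folds are less certain. The median of the mean log2 folds was -0.27 for the substrates, -0.31 for the other inhibitors, -0.30 for the three-finger genes, -0.12 for the receptor partners, 0.00 for the docking proteins (-0.00439 before rounding), 0.04 for the clearance receptors and 0.19 for the activating proteases. These medians depend on the 1 RPKM minimum. Without it they were -0.14 for the substrates, 0.02 for the other inhibitors and 0.03 for the three-finger genes. Without it they were also -0.13 for the receptor partners, 0.03 for the clearance receptors and 0.25 for the activating proteases. The value of -0.31 is that of a single gene, SERPINB8, the middle one of 3.

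**Figure D4:**
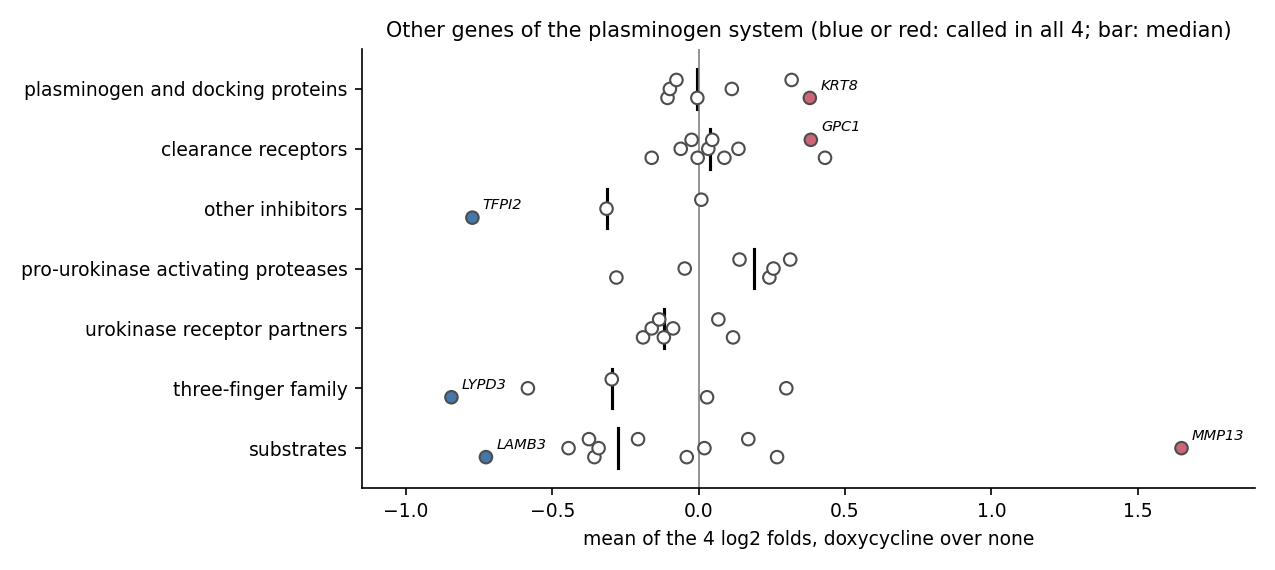
Mean of the 4 log2 folds (x axis) of each measured gene of the 7 lists (rows). Blue or red points were called lower or higher in all 4 comparisons and are labelled, and open points were not. The black bar is the median of the measured genes of the list. Among the substrates, 1 gene is not drawn but counts in the median. LYPD3, TFPI2 and LAMB3 lie between -0.84 and -0.73, and MMP13, listed at no more than 1.55 RPKM, stands apart at 1.65.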

How the data were processed

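The single file is a table of the authors' own comparisons, doxycycline against none, by clone and experiment. The genome build was hg38, according to the submitters' processing notes; the sources used here name no aligner, counter or test. The level is a score of the authors with no unit in the header, the higher group mean, taken as RPKM because level times exon length in kilobases sums to 1250137 to 1283205 per comparison. The fold is the authors' signed fold score, and the q-value their deposited adjusted p, listed as 0 for 71 to 195 genes per comparison.

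The other group's level (listed level divided by fold), clone ratios, calls at q under 0.05, list counts and distances between fold patterns were computed with Python 3.11.15 and pandas 2.3.3 and tested on simulated data. Gene models are GENCODE v29 on GRCh38; 21376 of 21463 rows (99.6%) matched. Depth was read from levels that rest on 1 read in 1 of 3 libraries. Members and lists were chosen with earlier results of these data known; not every inhibitor of plasminogen activators is among them. Named genes are the members, PARG, listed genes called in all 4 comparisons (1 of which is not reported here), genes overlapping a member and the 3 nearest fold patterns; KCNN4, IL23A's values, PLG, ANXA2, S100A10, LRP1, SERPINB8, CTSB, SPINT2 and ITGB1 were singled out after their values were seen. Alternatives were a q under 0.01, a 1.5-fold minimum, single clones or experiments, centring, a pseudocount of 0.5 RPKM, no minimum level and the treated groups.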

Additional observations from a re-analysis of the deposited data

How the results depend on the processing

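Of 126 values recomputed under the alternatives, 119 kept their direction and stayed within 1.5 times of the reported count or fold, and 7 counts moved. Some of the 119 still changed. With experiment B alone 3 members were called lower in place of 2, PLAUR being added. With a 1.5-fold minimum PLAUR was lost in H6 in experiment B, which left 2. In experiment N the log2 ratio of H6 to I4 went from -0.49 untreated to -0.03 treated for SERPINE2, and from 0.14 to 0.44 for SERPINB2. The number of members called higher in all comparisons considered was 1 (SERPINE2) in place of 0 when experiment N alone or clone H6 alone was used. With a 1.5-fold minimum the members called higher numbered 0 in I4 and 1 in H6 in experiment N and 0 in H6 in experiment B. At a q under 0.01 the members called higher in H6 in experiment N numbered 1, since PLAT was lost, and the three-finger genes called lower in all 4 numbered 0, since LYPD3 was lost. PLAU and SERPINB2 were called lower in all 4 comparisons at a q under 0.01 and with a 1.5-fold minimum. Centring on the median gene and a pseudocount changed no sign of a called fold. No paired analysis was possible because the table holds no value per library, and for the same reason no replicate could be left out. The folds of SERPINB2 rest on the fewest reads.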
